A study of Mus musculus with 2 samples.

Results

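The miR-23, miR-27 and miR-24 miRNAs of mouse come from a pair of related clusters, the Mir23a, Mir27a and Mir24-2 hairpins on chromosome 8 and the Mir23b, Mir27b and Mir24-1 hairpins on chromosome 13. Every row of the deposited count files whose name starts with miR-23a, miR-23b, miR-27a, miR-27b or miR-24 was taken. These were 7 mature arms out of 197 named miRNAs, and the same 7 names were found in both libraries: mmu-miR-23a-3p, mmu-miR-23b-3p, mmu-miR-23b-5p, mmu-miR-24-3p, mmu-miR-24-2-5p, mmu-miR-27b-3p and mmu-miR-27b-5p, written without the species prefix from here on. Of the 7 arms, 4 lay on chromosome 13 and 3 on chromosome 8. The libraries held liver small RNA of C57BL/6 mice, wild type, 2 to 3 months old and fed ad libitum, in 1 group of 2 replicates with no treated or mutant group. The labels do not state whether the replicates are different animals. The spread between them, and differences that pass a test, may therefore reflect technical variation alone. All p-values come from exact tests on counts, which allow for counting error only and not for variation between replicates.

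In each cluster the hairpins lie close together on one strand and are cut from a shared primary transcript by Drosha and then Dicer, after which 1 arm of the duplex is usually kept by an Argonaute protein and the other is degraded. The miR-27 family is known in liver for repressing genes of lipid handling, among them Gpam. miR-24 is known to repress Insig1, a brake on sterol synthesis. Both clusters are also known from endothelial cells, where they act in vessel growth, so whole liver can hold them in hepatocytes and in other cells.

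Which cluster a read came from can be told only where the mature sequences differ, so the listed sequences are shown first. Capitals mark the seed, bases 2 to 8 from the 5′ end, through which a miRNA mainly finds its targets. They are as listed in replicate 1, with miR-27a-3p, which neither library listed, from RefSeq (GRCm38.p6) for comparison.
miR-23b-3p: aUCACAUUgccagggauuaccacu
miR-23a-3p: aUCACAUUgccagggauuucca
miR-27b-3p: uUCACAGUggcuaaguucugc
miR-27a-3p: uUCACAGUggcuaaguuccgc
miR-24-3p: uGGCUCAGuucagcaggaacaga
miR-24-2-5p: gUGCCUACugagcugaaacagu
miR-27b-5p: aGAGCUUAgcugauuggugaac
miR-23b-5p: gGGUUCCUggcaugcuga

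The miR-23 paralogs share their seed and differ by 1 base over the 22 bases compared, U19A from miR-23a-3p to miR-23b-3p, counted from the 5′ end. The miR-27 paralogs likewise share their seed and differ by 1 of 21 bases, C19U from miR-27a-3p to miR-27b-3p. The seeds of miR-23b-3p and miR-27b-3p differ from each other at 1 base, U7G. In RefSeq, miR-24-3p has the same 22 bases at Mir24-1 and Mir24-2, so its count cannot be assigned to a cluster. The 5p arms of these hairpins do separate, since miR-24-1-5p and miR-24-2-5p differ at 5 of 22 bases. None of the 6 seeds found among the 7 arms was shared at bases 2 to 8 with another of the 197 named miRNAs.

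The chromosome 13 cluster spans 792 bases, GRCm38 chr13:63300484-63301275 on the plus strand. Mir23b and Mir27b are 154 bases apart and Mir27b and Mir24-1 423 bases apart. All 3 hairpins lie within the gene 2010111I01Rik, named Aopep in RefSeq, an aminopeptidase gene on the same strand. In GENCODE M21 Mir23b was intronic in all 9 transcripts that span it. Mir27b was intronic in the deposited annotation, but 1 of the 9 transcripts spanning it in GENCODE has an exon there, annotated as UTR. Mir24-1 overlaps exons of 4 transcripts of that gene. Fancc covers the cluster on the opposite strand.

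The chromosome 8 cluster is more compact, at 404 bases (GRCm38 chr8:84208518-84208921, plus strand), with gaps of 79 and 56 bases. The deposited files call it intergenic. In GENCODE only the 3′ end of Mir24-2 touches another gene on its strand, the lincRNA Gm26532. The nearest other listed miRNA was miR-181c-5p, 29573 bases away. Mir3074-1 and Mir3074-2 lie antisense to the miR-24 hairpins, and no arm of either was listed.

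**Figure D1:**
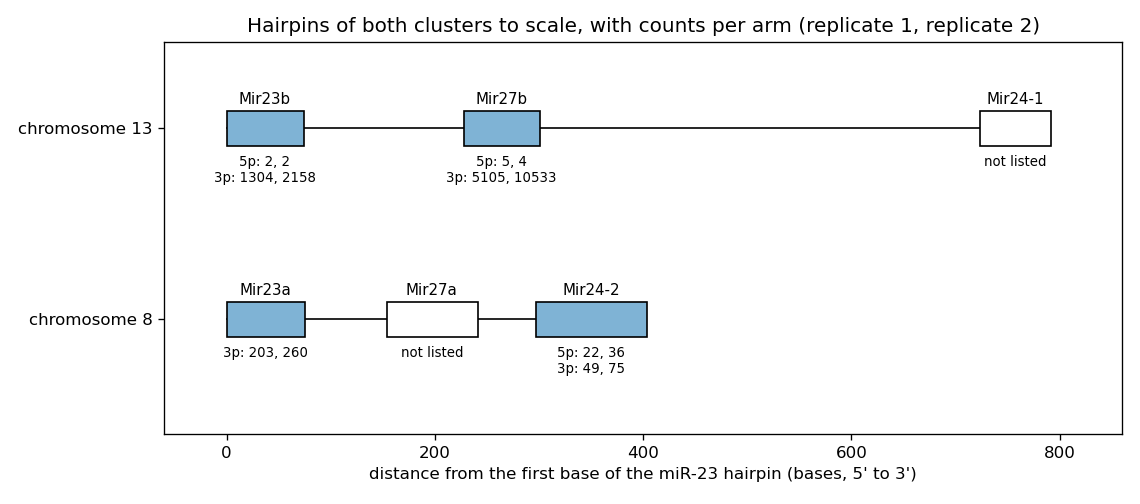
Hairpins of the chromosome 13 cluster (top) and chromosome 8 cluster (bottom), drawn to scale against the distance in bases from the start of the miR-23 hairpin. Filled boxes had a listed arm, with counts in replicate 1 and replicate 2 beneath; Mir27a and Mir24-1 had none listed, and the miR-24-3p counts of 49 and 75 stand at Mir24-2.

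The named miRNAs held 306351 counts in replicate 1 and 538023 in replicate 2, and levels are shares of these totals. Counts were not corrected for how well each sequence is captured in a library. Ratios and shares between different miRNAs or arms are therefore those of counts, not of molecules. Loci without a miRNA name held 5.02% and 2.46% of all listed counts. Intervals are exact Clopper-Pearson 95% intervals, which cover counting error only. All 4 hepatocyte marker miRNAs (miR-122, miR-192, miR-194 and miR-148a) were listed, with 4.83% and 5.16% of counts, while no muscle (miR-1a, miR-133a, miR-206) or pancreas (miR-216a, miR-217, miR-375) marker was.

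Together the 7 arms took 6690 counts in replicate 1 and 13068 in replicate 2, or 2.18% (95% interval 2.13 to 2.24) and 2.43% (2.39 to 2.47). The arms specific to chromosome 13 (miR-23b and miR-27b) made up 95.9% and 97.2% of the counts of the 7. The arms specific to chromosome 8 (miR-23a-3p and miR-24-2-5p) made up 3.36% and 2.27%, and miR-24-3p, which can come from either, 0.732% and 0.574%. In both libraries the chromosome 13 arms were thus the bulk of the listed counts, most of it from miR-27b-3p. Its chromosome 8 counterpart miR-27a-3p, which differs at 1 base, was not listed, and this sets no upper limit on it. How reads ending before that base were assigned was not given in the sources used here.

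miR-27b-3p, the arm with the known lipid targets, was the highest. Its counts were 5105 in replicate 1 and 10533 in replicate 2, which is 1.67% (1.62 to 1.71) and 1.96% (1.92 to 2.00), at ranks 15 and 12 among all named miRNAs. miR-23b-3p, cut from the same primary transcript, had 1304 and 2158 counts, or 0.426% (0.403 to 0.449) and 0.401% (0.384 to 0.418), at ranks 28 and 25. Its intervals in the libraries overlap, while those of miR-27b-3p do not.

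miR-23a-3p, its paralog on chromosome 8, stood much lower, with 203 and 260 counts. Its share was 0.0663% (0.0575 to 0.0760) in replicate 1 and 0.0483% (0.0426 to 0.0546) in replicate 2, at ranks 56 and 63, and these intervals do not overlap. miR-24-3p, the arm common to both clusters, had 49 and 75 counts, 0.0160% (0.0118 to 0.0211) and 0.0139% (0.0110 to 0.0175), at ranks 86 and 87. It lay below miR-23a-3p in both libraries, with no overlap of the intervals.

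The 5p arms were the lowest. miR-24-2-5p, the passenger arm of the chromosome 8 copy of miR-24, had 22 and 36 counts, or 0.00718% (0.00450 to 0.0109) and 0.00669% (0.00469 to 0.00926). miR-27b-5p had 5 and 4 counts and miR-23b-5p 2 and 2, and their intervals overlap with each other in both libraries. The order of the first 5 arms, miR-27b-3p, miR-23b-3p, miR-23a-3p, miR-24-3p and miR-24-2-5p, was the same in both, with no overlap between the intervals of neighbours within a library. Neither arm of Mir27a, nor miR-23a-5p or miR-24-1-5p, was listed in either library. The files list called loci only, so this sets no upper limit on them.

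**Figure D2:**
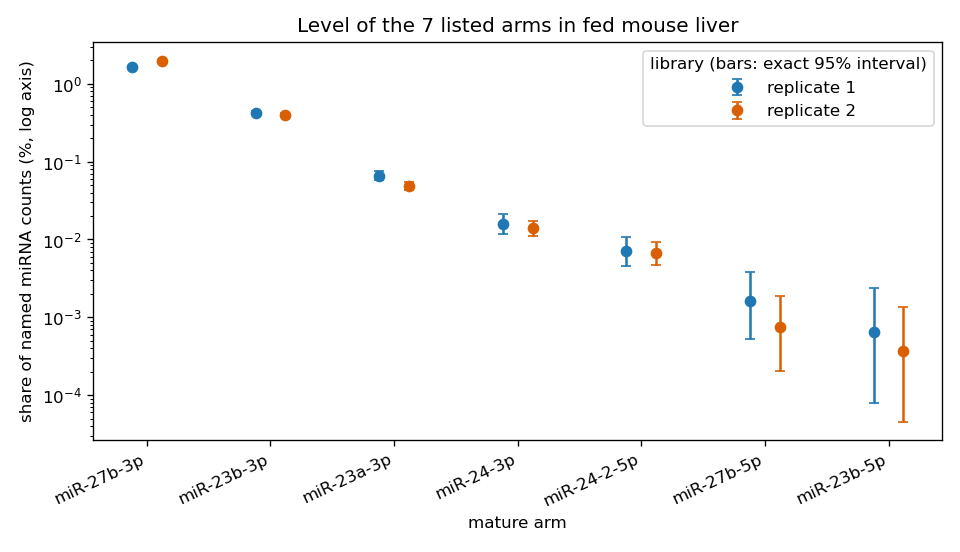
Share of named miRNA counts (log axis) of each of the 7 listed arms, with a point per library and its exact 95% interval. The shares run from 1.67% and 1.96% for miR-27b-3p down to miR-23b-5p, which rests on 2 counts in each library.

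By level over both libraries, the miRNAs nearest to miR-27b-3p were miR-423-5p (6032 and 11477 counts) and miR-378a-3p (6062 and 13560 counts), at Euclidean distances of 0.27 and 0.44 between their pairs of log2 CPM values (counts scaled to a common library size). Those nearest to miR-23b-3p were miR-351-5p (distance 0.17) and miR-148a-3p (0.23). For miR-23a-3p they were miR-130a-3p (0.11) and miR-676-3p (0.25), for miR-24-3p miR-361-5p (0.31) and miR-125a-5p (0.34), and for miR-24-2-5p miR-181d-5p (0.10) and miR-1843a-5p (0.24). With 2 libraries this measures likeness of level and little else.

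The first comparison was between the paralogs of the clusters. miR-23 is the only family here with a listed 3p arm specific to each cluster. miR-23b-3p exceeded miR-23a-3p 6.42-fold in replicate 1 and 8.30-fold in replicate 2. It made up 86.5% of the miR-23 3p counts in replicate 1 (84.7 to 88.2, of 1507 counts) and 89.2% in replicate 2 (87.9 to 90.5, of 2418 counts), both far from equal shares. The shares of the libraries differed by a 2-sided Fisher's exact test on the counts (p = 0.0110), with odds 1.29-fold higher in replicate 2. That test compares these libraries only. How reads ending before the differing base were assigned to a paralog was not given in the sources used here, so the split is uncertain to that extent.

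The hairpins of these paralogs show where the kept arm sits. In the RefSeq sequences below (GRCm38.p6, plus strand) the capitals mark the mature arms, the 5p arm first and the 3p arm second; for the 3p arm of Mir23b they mark the span listed in the files.
Mir23b, chr13:63300484-63300557: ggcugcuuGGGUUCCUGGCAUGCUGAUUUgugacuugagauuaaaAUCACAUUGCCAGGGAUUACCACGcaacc
Mir23a, chr8:84208518-84208592: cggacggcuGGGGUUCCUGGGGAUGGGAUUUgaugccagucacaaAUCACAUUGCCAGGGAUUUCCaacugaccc

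The listed 3p arm of Mir23b ended in a base that is not in the hairpin, G24U in both libraries, counted from the 5′ end of the arm with the hairpin's base first. miR-24-3p was listed 1 base longer in replicate 1 than in replicate 2, with a last base that differed from the Mir24-2 hairpin (G23A), and miR-23b-5p had such a last base in replicate 2 (G22A). So 2 of the 7 arms in each library ended in a base that differs from the hairpin. Over all named loci that could be compared with a RefSeq hairpin this was so for 11 of 142 (7.75%) in replicate 1 and 18 of 154 (11.7%) in replicate 2. miR-23a-3p was listed with 22 bases against 21 in RefSeq, its last base being the next base of the hairpin. miR-27b-3p, miR-27b-5p and miR-24-2-5p equalled the RefSeq sequence in both libraries. The rule by which the files give 1 sequence per locus was not stated.

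The next comparison was among members of the same transcript. On chromosome 13, miR-27b-3p exceeded miR-23b-3p 3.91-fold in replicate 1 (95% interval 3.68 to 4.16) and 4.88-fold in replicate 2 (4.66 to 5.11). This ratio was 1.25-fold higher in replicate 2, which passed a 2-sided Fisher's exact test on the counts (adjusted p = 9.997e-08 over the 5 ratios computed). On chromosome 8, miR-23a-3p exceeded miR-24-2-5p 9.23-fold (5.93 to 15.1) and 7.22-fold (5.08 to 10.5), a difference between the libraries that did not pass (adjusted p = 0.518, same exact test).

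By listed counts, miR-24-3p was low against its partners in both clusters. miR-23b-3p exceeded it 26.6-fold (20.01 to 36.2) in replicate 1 and 28.8-fold (22.9 to 36.7) in replicate 2. miR-27b-3p exceeded it 104-fold (78.7 to 141) and 140-fold (112 to 179). miR-23a-3p exceeded it 4.14-fold (3.02 to 5.78) and 3.47-fold (2.67 to 4.54). Each of these ratios used all listed counts of miR-24-3p. How reads that match both Mir24-1 and Mir24-2 were counted is not stated, so its level may be understated and the ratios are no lower bounds. None of the 3 ratios passed the same exact test between the libraries (adjusted p of 0.706, 0.309 and 0.518).

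For comparison with other clusters, each hairpin was taken at its more abundant arm and at the locus where that arm was listed, which leaves miR-24-3p out of the chromosome 13 cluster. Over 17 clusters of hairpins within 10 kb on a strand, the highest member exceeded the lowest 4.38-fold for Mir23b with Mir27b and 3.83-fold for Mir23a with Mir24-2, in mean share. The unlisted Mir27a is missing from the chromosome 8 cluster. In the other 15 clusters this ran from 1.18-fold to 82.2-fold with a median of 6.41-fold. Names with several loci entered in full at each, among them let-7a-5p at Mirlet7a-1 and Mirlet7a-2 and miR-181b-5p at Mir181b-1 and Mir181b-2. miR-30c-5p, also listed at Mir30c-2, entered in full at Mir30c-1 and stood 2.27-fold above miR-30e-5p. Mir181a-1 entered by miR-181a-1-3p (4 and 6 counts), giving 36.5-fold. The largest value, 82.2-fold, set miR-181a-5p against miR-181b-5p. The range and its median are uncertain to that extent. The ratios of miR-27b-3p to miR-24-3p, 104 and 140, would lie above this range, but they set a chromosome 13 arm against counts listed on chromosome 8.

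The third comparison was between the arms of each hairpin. Mir27b was almost wholly 3p. Its 5p arm held 5 of 5110 counts in replicate 1 (0.0978%, 95% interval 0.0318 to 0.228) and 4 of 10537 in replicate 2 (0.0380%, 0.0103 to 0.0972). Mir23b was close to it, with 2 of 1306 counts on 5p (0.153%, 0.0186 to 0.552) and 2 of 2160 (0.0926%, 0.0112 to 0.334).

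Mir24-2 was far less one-sided. Its 5p arm held 31.0% of counts in replicate 1 (20.5 to 43.1) and 32.4% in replicate 2 (23.9 to 42.0). The 3p arm still dominated, with adjusted p of 0.00209 and 0.000312 by 2-sided exact binomial tests against equal shares, adjusted over all hairpins tested. miR-24-3p may include reads from Mir24-1, or may have lost reads that match both copies, so the true 5p share of Mir24-2, and with it the rank given next, may be higher or lower than listed.

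All 3 hairpins were dominated by 3p in both libraries, as were 24 of the 47 hairpins tested, or 51.1%. In order of 5p share they stood at ranks 2 (Mir27b), 5 (Mir23b) and 24 (Mir24-2) of these 24, so that Mir24-2 had the highest 5p share of the hairpins dominated by 3p. The median 5p share of the 24 was 2.46%. Hairpins with an arm unlisted in either library, Mir23a among them, were left out, so these values cover only hairpins with both arms listed. The hairpins nearest in 5p share to Mir27b and Mir23b were Mir455 (0.0778% ± 0.00184, SD, n = 2) and Mir29a (0.105% ± 0.0982), and those nearest to Mir24-2 were Mir361 (30.4% ± 5.74) and Mir99b (29.4% in both libraries). None of the 3 passed Fisher's exact test of arm share between the libraries (adjusted p of 0.603, 1.00 and 1.00 for Mir27b, Mir23b and Mir24-2), against 4 of the 47 hairpins, or 8.51%.

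The predicted folds of the RefSeq hairpins differed as well. Mir27b had a minimum free energy of -0.54 kcal/mol per base, rank 16 from the most stable of 106 listed hairpins, while Mir24-2 (-0.46), Mir23a (-0.43) and Mir23b (-0.39) stood at ranks 42, 54 and 77. The unlisted Mir27a and Mir24-1 had -0.42 and -0.39. The median of the 106 was -0.44. Mir27b and Mir23b, whose 5p shares were both under 1%, stood at opposite ends of the 4 listed hairpins in fold energy. Whether fold energy goes with arm share was not tested. The first base of the kept arm was U in miR-27b-3p and miR-24-3p and A in both miR-23 arms. In replicate 1, U and A opened 39.3% and 23.8% of named loci, with 49.0% and 40.6% of their counts. In replicate 2 they opened 41.2% and 25.1% of named loci, with 47.6% and 42.2% of their counts.

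The last comparison was between the replicate libraries, after scaling them by the trimmed mean of M values (TMM). Among the 5 members with at least 10 counts summed, miR-27b-3p was the only one to pass in this fit, although miR-23a-3p or miR-23b-3p joined it under other settings given below. It was higher in replicate 2 by 0.40 on the log2 scale, or 1.32-fold (95% interval 1.27 to 1.36), with an adjusted p of 7.17e-59 by a 2-sided exact binomial test. Of all 131 miRNAs tested, 44.3% passed the test and 21.4% were higher in replicate 2, so a call of this kind was common. When plain library totals replaced TMM, the split of calls over all miRNAs moved from 28 higher and 30 lower to 19 higher and 45 lower, and the overall median log2 ratio went from -0.03 to -0.19. Beside that shifted median, the log2 ratio of miR-27b-3p was 0.23, which still passed.

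The other 4 members did not pass. miR-23a-3p was at 0.817-fold in replicate 2 (0.677 to 0.986, adjusted p = 0.0692 by the exact test), and it passed as lower with library totals (log2 ratio -0.46). miR-23b-3p was at 1.06-fold (0.985 to 1.13, adjusted p = 0.231). It passed as higher when at least 50 counts were asked for (log2 ratio 0.13, adjusted p = 0.0227 by the exact test), and its sign turned with library totals (-0.09). miR-24-3p was at 0.976-fold (0.672 to 1.43) and miR-24-2-5p at 1.04-fold (0.598 to 1.86), wide intervals that include ratios on both sides of equality. The median log2 ratio of the 5 was 0.05, and that of all 131 was -0.03. miR-27b-5p and miR-23b-5p had too few counts to test.

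**Figure D3:**
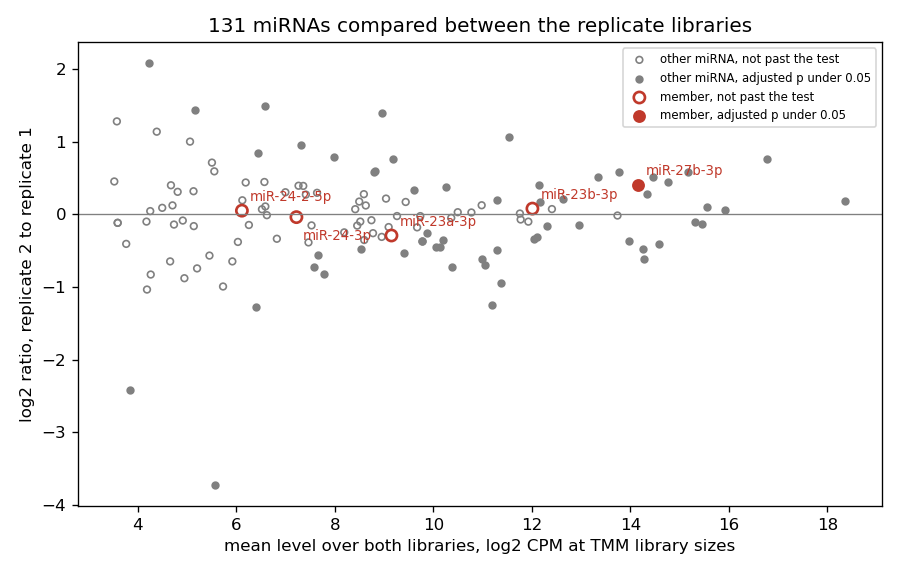
Log2 ratio of replicate 2 to replicate 1 against the mean level (log2 CPM) for the 131 miRNAs tested. Filled symbols passed the exact binomial test at an adjusted p under 0.05; of the 5 members in red, miR-27b-3p at 0.40 did, while the other 4 lie between -0.29 and 0.08.

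Other miRNAs with known roles in lipid and cholesterol handling gave a context for miR-27b-3p. Of 18 such miRNAs, 6 were listed, and their 9 tested arms comprised 4 that were higher in replicate 2, 1 that was lower and 4 not past the test, with a median log2 ratio of 0.16. Over all 131 miRNAs 21.4% were higher and 22.9% lower, with a median of -0.03, and from 9 arms nothing particular to this list can be read. The highest were miR-122-5p, the main miRNA of hepatocytes (2.50% and 3.04%), miR-378a-3p, encoded in Ppargc1b (1.98% and 2.52%), and miR-30c-5p, known to repress Mttp (0.885% and 0.713%). miR-27b-3p lay between miR-378a-3p and miR-30c-5p in both libraries. miR-122-5p and miR-378a-3p were higher in replicate 2, by 0.44 and 0.51 on the log2 scale, and miR-30c-5p was lower (-0.15).

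Of 8 other miRNAs known from endothelial cells and vessel growth, 6 were listed. Their 7 tested arms comprised 1 that was higher in replicate 2, 1 that was lower and 5 not past the test, with a median log2 ratio of -0.25. Beside these stand 21.4% higher and 22.9% lower over all 131 miRNAs, with a median of -0.03. From 7 arms nothing particular to this list can be read. miR-92a-3p (8.86% and 13.4%) was the one that was higher, and miR-221-3p (0.138% and 0.0903%) the one that was lower. miR-130a-3p stood at 0.0614% and 0.0485%, close to miR-23a-3p.

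Markers of cell types are given beside the background of 44.3% of all miRNAs past the test, 21.4% higher and 22.9% lower. Of the 7 tested hepatocyte marker arms 3 were higher in replicate 2 and 1 was lower. Of the immune markers 2 of 5 were listed (miR-142a, miR-223 and miR-155 were not), with 0.341% and 0.212% of counts, and both tested arms were lower. Of the stellate and mesenchymal markers 4 of 5 were listed (miR-199b was not, and miR-199a was in replicate 2 only), with 0.559% and 0.349%. Of their 5 tested arms 1, miR-145a-5p, was lower (1060 and 702 counts, log2 ratio -1.24). The other 4 did not pass and had log2 ratios above 0 with TMM scaling, and the median of the list was 0.31. The endothelial marker miR-126a took 0.0444% and 0.0355% with no arm past the test, and the biliary marker miR-200b, with miR-200a, miR-200c, miR-141 and miR-429 unlisted, took 0.0206% and 0.0309%, with its 1 tested arm, miR-200b-3p, higher in replicate 2 (1.72-fold, adjusted p = 0.000641 by the exact test). Of the erythroid markers (miR-451a, miR-144, miR-486) only miR-486 was listed, in replicate 2, and of the neural ones (miR-124, miR-9, miR-129) only miR-129, in replicate 1. Their part in the difference of miR-27b-3p was not tested. In whole liver, fewer cells of a type and less RNA per cell cannot be told apart.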

How the data were processed

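Small RNA libraries were made from 1 µg of Trizol-isolated total RNA of snap-frozen liver with a TruSeq kit, per the labels' protocols. Bowtie 1.0.1, cutadapt 1.5, FastQC 0.11.2 and the build GRCm38 (mm10) are named in the submitters' processing notes. The locus caller was not given in the sources used here. Files deposited by the authors hold whole-number read counts per called locus, not normalised, and list called loci only. Unlisted miRNAs had no value, not a count of 0.

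For names with several loci the most counted locus was kept; no member had several. Loci without a miRNA name (32 in replicate 1 and 33 in replicate 2) were left out. File positions count from 0 and were raised by 1. With 1 group there was no contrast for edgeR's quasi-likelihood test. The libraries were compared by a 2-sided exact binomial test at TMM library sizes (edgeR 4.0.16, R 4.3.3) over miRNAs listed in both with at least 10 counts summed, with Benjamini-Hochberg adjustment and a threshold of 0.05. Log2 ratios have a prior count of 0.5. The test was checked on simulated counts drawn with counting error only, as the test itself assumes. That check does not cover further variation between libraries. Arm shares were tested where both arms were named and summed to at least 20 counts per library. Fisher's exact test compared ratios and arm shares between libraries (SciPy 1.17.1). Folds are from ViennaRNA 2.7.2. RefSeq sequences (GRCm38.p6) were matched by name for 6 of the 7 arms, and that of miR-23b-3p is from the deposited files.

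Alternatives were DESeq2 1.42.0 size factors, library totals, count filters, totals with all loci, other treatments of several loci or unlisted miRNAs, another prior count, and leaving out a replicate. All members are named, with the nearest 2 miRNAs by level, the nearest 2 hairpins by 5p share and the 3 highest of each list. The members and lists were chosen with earlier results of these data known. The grouping of hairpins into clusters within 10 kb was chosen after the data were seen.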

Additional observations from a re-analysis of the deposited data

How the results depend on the processing

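Some recomputed values were bound to hold, as given below. Over all results and alternatives, 117 of 129 held. For a tested value this means the same direction and side of the threshold, for a level or ratio a move smaller than the SD between the libraries, and for a count a value within 1.5 times the reported one. Within that limit the number of miRNAs past the test went from 58 of 131 tested to between 55 of 100 and 76 of 149. That of hairpins dominated by 3p went from 24 of 47 to 18 of 35 with at least 100 counts over both arms. The totals tested moved with the settings, so these counts are not shares. Of the rest, the total share of the 7 arms rose from 2.31% to 2.52% when counts were averaged over the loci of a name. The number of members that differed between the libraries went from 1 to 2 with library totals (1 higher and 1 lower) and to 2 with at least 50 counts summed (both higher). The direction turned for miR-23b-3p (-0.086) and miR-24-2-5p (-0.11) with library totals, and for miR-24-3p (0.010) with at least 50 counts summed. The cause was not tested. miR-27b-3p passed under every alternative of this test, with log2 ratios from 0.23 to 0.45. With miR-24-3p divided between the clusters by the miR-23 paralog share, its partners miR-23b-3p and miR-23a-3p each exceeded it 31.5-fold in place of 27.7-fold and 3.80-fold, and the 2 ratios are equal by construction. With at least 100 counts over both arms, Mir24-2 was no longer tested. Leaving out a library gives the value of the other, without a test. With 2 libraries that value always lies less than the SD from the mean, so these values held by construction. Summing over loci could not change the ratios or arm shares of members either, as no member had several loci. Nor could counting unlisted miRNAs as 0 change the share of a member. The prior count does not enter the exact test, so changing it could not change which miRNAs passed. No paired analysis was possible because there is 1 group. The counts of miR-24-2-5p, miR-27b-5p and miR-23b-5p limit what can be said of them.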

Other observations

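The hairpin sequences printed in the deposited files were not the same in both libraries, although the strain was. For Mir23b the files differed at 1 base, where replicate 1 had the RefSeq base and replicate 2 did not (G30A, counted from the 5′ end of the RefSeq hairpin, at GRCm38 chromosome 13, position 63300513). This is the last base of miR-23b-5p as listed in replicate 2. For Mir27b they differed at A29U (position 63300740), again with the RefSeq base in replicate 1, at the base that follows miR-27b-5p. Of 139 named loci listed with the same hairpin span in both libraries, 82 (59.0%) had hairpin sequences that differed, and of the 6 members among them 4 did, both arms of Mir23b and Mir27b. The cause was not tested, and no count depends on these sequences here.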
